A study of Mus musculus with 122 samples.

Results

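Imprinted genes are expressed mainly from the maternal or mainly from the paternal chromosome. Most lie in clusters in which a differentially methylated region, marked in the germ line, sets the expressed allele of several neighbours, often through a long non-coding RNA or through an insulator that works on the unmethylated allele. CTCF, the zinc finger protein that insulates enhancers from promoters and halts cohesin, binds the unmethylated allele at several such regions, and its germ cell paralog CTCFL is also known as the brother of the regulator of imprinted sites. The data were searched for 47 imprinted genes outside the Igf2-H19 locus, chosen by name from 19 clusters or single loci, out of 52459 genes in the expression table. Of the 47, 19 are known mainly as maternally expressed, 23 as paternally expressed and 5 change allele with isoform or tissue.

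The cells were E14Tg2a mouse embryonic stem cells (129/Ola, XY) grown without feeders in serum, leukemia inhibitory factor and the inhibitors CHIR99021 and PD0325901. In every group, controls included, both copies of Ctcf carried an auxin-inducible degron and eGFP, the plant ubiquitin ligase TIR1 was made from Rosa26, and a doxycycline-inducible transgene with an N-terminal FLAG tag and mRuby2 sat at Tigre. Each transgene defined a line that was grown from a selected clone: CTCF, CTCFL, and the chimeras LCL and CLC, whose letters give the source of the N terminus, the zinc fingers and the C terminus (C for CTCF, L for CTCFL), with CLL and LLC used for binding only. The conditions were U (untreated), I (500 μM indole-3-acetic acid, which depletes the tagged CTCF), D (1 μg/ml doxycycline, which induces the transgene) and ID (both agents). By the sample labels treatment lasted 24 h for RNA-seq and most ChIP-seq and 48 h for CLL, LLC and the RNase experiment, while the treatment protocol gives 2 days for both assays. RNA-seq held 38 libraries, with 3 per condition in the CTCFL line except 2 in ID, 3 in the CTCF line except 2 in U, and 2 per condition in LCL and CLC. The names of the LCL and CLC libraries carry the tag 2i, and those of the CTCF and CTCFL lines do not. What the tag marks is not stated, and the culture protocol gives the same medium for all clones. No label says whether replicates came from separate cultures, so p-values measure only the spread between these libraries. The table holds a single value per gene over both alleles, so a change of allele cannot be seen in it. In bulk RNA, fewer cells of a kind and less RNA per cell cannot be told apart.

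Read depth, recovered from the steps in the normalized read counts, ran from 6847072 to 49716771 reads in 36 libraries and could not be recovered in 2 (I R2 and ID R2 of the CTCFL line, R standing for replicate). Ctcfl rose in D in the CTCFL line, from 193, 225 and 206 in U to 7764, 9398 and 7569.5 (log2 fold change 5.30 ± 0.10). Ctcf counts in the CTCF line were 4712 and 4691 in U and 3845, 3849.9 and 3549.7 in D. The counts thus show no added Ctcf RNA with doxycycline, although FLAG peaks were called in D and ID of this line. The summed counts of 8 naive stem cell markers were 69964 to 150340 in the CTCFL and CTCF lines and 172217 to 254040 in LCL and CLC. Those of 5 primitive endoderm markers were 2950 to 5204 and 507 to 1061 in the same pairs of lines. Within a line, 3 of the 8 naive markers (Esrrb, Sox2 and Tfcp2l1) fell in ID against U in the CTCFL and CTCF lines, and Esrrb and Sox2 also in I against U in the CTCF line. In I against U, calls among markers of other cell types were rises of Gata6 in LCL and CLC and of Dab2 in CLC (primitive endoderm). Others were rises of Cdx2, Gata3 (trophoblast) and Mixl1 (mesoderm) in the CTCF line and of Col1a1 (fibroblast) in CLC, and falls of Sox1 (neural) in the CTCF line and CLC. In D against U, Col1a1 rose in CTCFL and LCL and Sox1 fell in CTCFL. In ID against I, Eomes rose and Sox1 and Tfcp2l1 fell in CTCFL, Thy1 fell in LCL and Col1a1 fell in CLC. In ID against U, Sox1 fell in all 4 lines. Cdx2 rose there in CTCFL and the CTCF line, Col1a1 in CTCFL and Mixl1 in the CTCF line. Gata6 rose in LCL and CLC, Tfap2c (trophoblast) in LCL and Sox17 (primitive endoderm) in CLC. The part of these markers in the results for imprinted genes was not tested.

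Binding at the imprinted promoters was described first. A site was a region with a FLAG peak in both replicates of a group, and a promoter site had its middle within 3 kb of an annotated transcription start. Of the 47 imprinted genes, 15 (31.9%) had a promoter site of CTCF in ID, beside 17.2% of 46503 annotated genes and 30% of the 17405 genes tested for expression. CTCFL in D had promoter sites at 22 (46.8%), beside 21.5% of annotated and 42% of tested genes. LCL in ID had them at 25 (53.2%, beside 26.6% and 50.3%) and CLC in ID at 12 (25.5%, beside 13.9% and 26.4%). These 4 shares were above those of all annotated genes and closer to those of tested genes. Over the remaining groups the counts were 18 for CTCF in D (38.3%, beside 21.6% of annotated and 38.1% of tested genes), and 17 for CTCFL in ID (36.2%, beside 20.7% and 39.6%). They were 16 for LCL in D (34%, beside 21% and 39.3%) and 3 for CLC in D (6.38%, beside 5.25% and 9.53%).

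The chimeras with a CTCFL C terminus behind CTCFL zinc fingers, or a CTCFL N terminus before them, had fewer listed sites than the other 4 proteins in the same condition, at 48 h against 24 h by the labels. CLL had promoter sites at 10 imprinted genes in ID (21.3%, beside 10.2% of annotated and 19% of tested genes) and at 0 in D (beside 0.746% and 1.07%). LLC had them at 4 in ID (8.51%, beside 3.15% and 5.29%) and at 1, Zim1, in D (2.13%, beside 1.07% and 1.61%). The number of sites listed for a group ran from 1908 for CLL in D to 37154 for CTCF in D. The counts were not compared by a test, since the depth behind a peak list is unknown.

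In all, 28 of the 47 genes had a promoter site in at least 1 group, in 47 regions. The regions were counted gene by gene, so a region shared by neighbours counts once for each gene. The same share over all genes was not counted, so this total does not set imprinted promoters apart. The bound proteins differed between loci. At Meg3 (chr12:109541001-109571726, GRCm38, plus strand), the maternal long non-coding RNA of the Dlk1-Meg3 cluster, a region with its summit in an exon, 784 bp from the nearest annotated start and 2051 bp inside the outermost one, was called in 10 of the 12 FLAG groups outside the RNase experiment. There the −log10 q of the highest peak was 119.5 and 127 in the 2 replicates of CTCF in ID, 72.7 and 56.5 for CTCFL in ID, 73 and 90.01 for CLC and 65.8 and 81.7 for LCL. The region was thus held by proteins with either set of zinc fingers.

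Peg3 and Zim1 divided the proteins. Peg3, a paternally expressed zinc finger gene, had a site 2885 bp from a start, just inside the window, with −log10 q of 48.1 and 50.98 for CTCF in D and 62.8 and 45.8 in ID, and 8.8 and 13.1 for LCL in D. No Peg3 promoter site was called for CTCFL, CLC, CLL or LLC. Its maternally expressed neighbour Zim1 had a region called for CTCF in D and ID and for LCL in ID (55.99 and 29.4 for CTCF in ID), and another, 2139 bp upstream of a start, called for CTCFL in D (12.1 and 3.77), CLC in ID, CLL in ID and LLC in D and ID. The mock groups of the RNase experiment, CTCF included, also had this second region. The Peg3 site and the first Zim1 region were thus listed only for the proteins with CTCF zinc fingers, CTCF and LCL. In the Kcnq1 cluster, promoter sites at the trophoblast regulator Ascl2, at Tssc4 and at the tetraspanin gene Cd81 were called for CTCFL in D and ID and for LCL in ID, but not for CTCF. Tssc4 and Cd81 shared the same region, 1034 bp upstream of a Tssc4 start and 2014 bp from the nearest Cd81 start, outside that gene. A separate Cd81 region, 96 bp from a start, was called for CTCFL in D alone. At Ascl2 the −log10 q was 19.1 and 8.77 for CTCFL in D and 9.4 and 10.5 for LCL in ID.

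On chromosome 6, Peg10, a retrotransposon-derived paternally expressed gene (chr6:4747306-4760517), and Sgce, which encodes epsilon-sarcoglycan (chr6:4674350-4747207), are transcribed away from each other. The promoter windows of both held 1 shared region, whose summit lay in an exon of Sgce, 68 bp inside its outermost start and 167 bp upstream of Peg10. It was called in 8 of 12 FLAG groups, with −log10 q of 50.9 and 40.2 for CTCF in ID and 59.8 and 59.6 for LCL in ID. Ppp1r9a (chr6:4902917-5165661), which encodes the actin-binding protein neurabin, had a weak site 79 bp upstream of its main start, called for CTCF in D (2.76 and 10.6), CTCFL in D and LCL in ID. A second Ppp1r9a site lay in an intron, 41 bp upstream of an internal annotated start, in 9 of 12 groups, with −log10 q of 127 and 98.5 for CTCF in ID and 68.6 and 65.1 for CTCFL in ID. Grb10 (chr11:11930508-12038683), a signalling adaptor that restrains growth, had an exonic region 461 bp downstream of an annotated start called in 9 of 12 groups. Trappc9 (chr15:72589620-73061204), a subunit of a vesicle tethering complex, had no promoter site in any FLAG group: its 3 sites of CTCF in ID within the gene lay at least 11165 bp from a start. The nearest site of CTCF in ID lay outside the gene, 7803 bp from a Trappc9 start. Just outside the window lay sites of CTCF in ID at Cdkn1c (3060 bp), Kcnk9 (3231 bp), Plagl1 (3321 bp) and Phlda2 (3388 bp). The Phlda2 region, with its summit 2896 bp upstream of a start, was called in 8 of 12 FLAG groups. For CTCFL in D its middle lay 2842 bp from a start, so there it counted as a promoter site.

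The genome at the summits of the main sites is printed below to show what lies under them, as the 30 bases around the highest summit of a region (GRCm38, plus strand, 5′ to 3′, the capital marking the summit base). The windows are chr12:109543038-109543067 for Meg3, chr7:6727449-6727478 for Peg3, chr7:6688934-6688963 for the first Zim1 region and chr7:6690797-6690826 for the second, chr6:4747125-4747154 for the region shared by Sgce and Peg10, chr6:5110604-5110633 for the internal Ppp1r9a site and chr11:12025849-12025878 for the exonic Grb10 site.
Meg3: gcgccccctagcggTctctatgtgcaaatg
Peg3: ctgcagtcagtaccAgagagcccctccttc
Zim1, first region: gatgccctcttctgGtttccacaggcactg
Zim1, second region: ctgtgtgcttgtgtCtgtgtgtctctgtgt
Sgce-Peg10: cctcccctccctttCtttttttcctcccag
Ppp1r9a: atgtgggaatgactCttcacactgtgcgag
Grb10: gctagcacagacttCgccacacggggtcgc
The second Zim1 window is a run of alternating t and g bases with few interruptions, and the Sgce-Peg10 window holds c and t at most positions. Among the other regions, the Dlk1 site was called for CTCFL in D alone (8.73 and 2.77) and an intronic Ube3a region for CTCF in D alone (8.77 and 19.9). Another Ube3a region, 158 bp downstream of a start, was called for CTCFL in D (24.7 and 16.5) and ID and for CLC, LCL and CLL in ID. One of 3 H13 regions, 102 bp upstream of this signal peptide peptidase gene, was called with either set of zinc fingers (52.96 and 48.9 for CTCF in ID and 65.6 and 55.2 for CTCFL in ID).

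**Figure D1:**
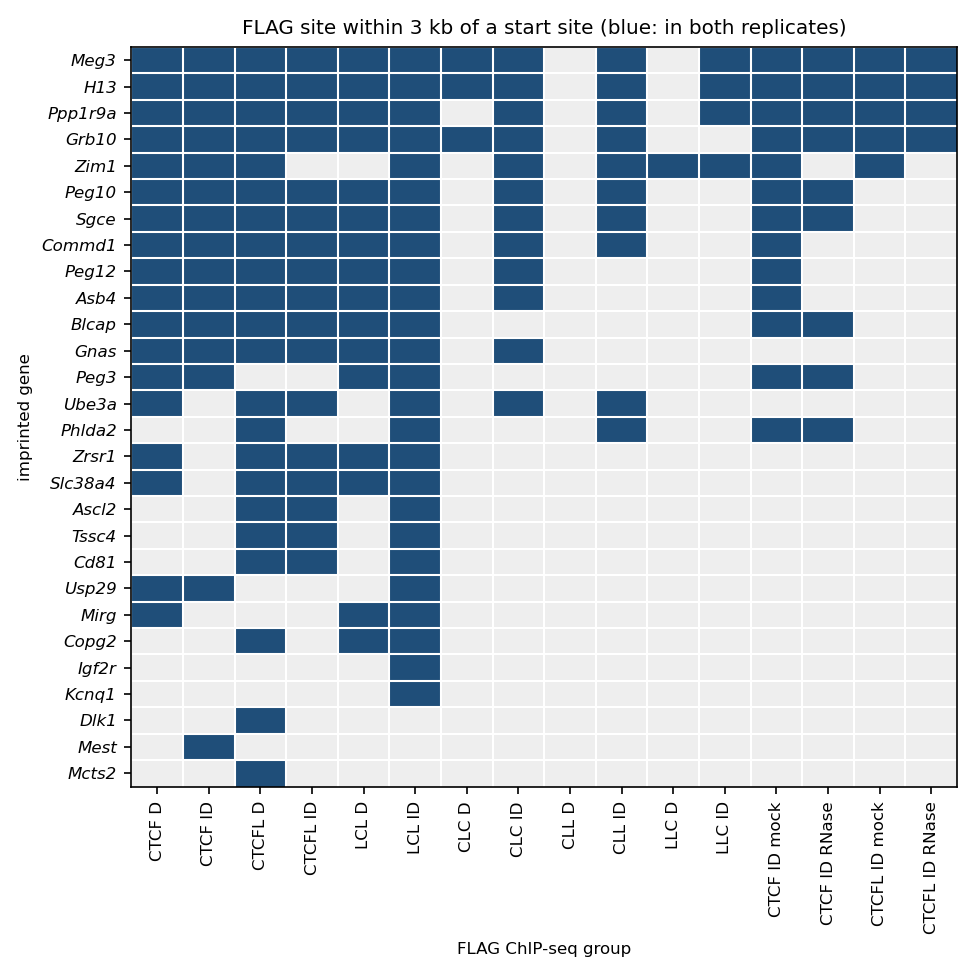
Imprinted genes with a promoter site (rows) in each FLAG ChIP-seq group (columns), a filled cell marking a site called in both replicates with its middle within 3 kb of a start. Meg3, Ppp1r9a, Grb10 and H13 are filled in most groups, and Peg3 only in those of CTCF and LCL, with 25 genes filled for LCL in ID and 0 for CLL in D.

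RAD21, a cohesin subunit, had sites at 5 imprinted promoters in D of the CTCF line (Phlda2, Ppp1r9a, Blcap, Grb10 and Commd1, 10.6%, beside 1.92% of annotated and 3.17% of tested genes) and at Ppp1r9a in ID of that line (2.13%, beside 0.295% and 0.448%). At Ppp1r9a this was the internal site (3.16 and 3.24 in ID). It had 0 in D and ID of the CTCFL, CLC and LCL lines (beside 0.101% to 0.972% of annotated genes). The 2 RAD21 lists of a group differed widely in length, for example 22765 and 3756 peaks in D and 8593 and 784 in ID of the CTCF line, which bounds every count of shared sites. The RNase experiment in ID listed promoter sites at 13 imprinted genes with mock treatment and 9 with RNase for CTCF (27.7% and 19.1%, beside 12.4% and 6.06% of annotated and 22.1% and 11.6% of tested genes). For CTCFL it listed 5 and 4 (10.6% and 8.51%, beside 4.28% and 3.08% of annotated and 7.84% and 6.66% of tested genes). At Meg3 the −log10 q for CTCF was 70.6 and 67.4 with mock treatment and 39.7 and 23.9 with RNase, and for CTCFL 20.9 and 33.7 and 28.4 and 12.3. The CTCF replicates did not overlap between treatments there and the CTCFL replicates did, with list lengths that differed as well (26051 and 8740 peaks for CTCF with RNase), and with 2 replicates no test was made.

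Expression was detected for most of the genes. The normalized read counts of Kcnk9, a potassium channel gene, were 0 in all 38 libraries, and those of Rtl1, Peg13 and Airn reached at most 4.64, 11.73 and 22.89. These 4 were tested in no line, because a gene needed a mean of at least 10 in the line. Of the rest, 43 were tested for CTCFL, 41 for CTCF, 37 for LCL and 38 for CLC, and 35 in all 4 lines. Untested in some lines were Asb4 (2 lines tested), Rasgrf1 (1), Kcnq1 (2), Zim1 (2), Peg3 (3), Mest (3), Nnat (3) and Nap1l5 (3). A gene was called with limma at an adjusted p under 0.01 (Benjamini-Hochberg, over all genes tested in the line) and a log2 fold change over 1 in either direction, on log2 of the normalized read count plus 1. By this rule 25 of the 47 were called in at least 1 of 16 comparisons of conditions, with 82 calls in all. The share of all genes called in at least 1 was not counted, so these totals do not set imprinted genes apart. Errors of log2 fold changes are standard errors.

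The lines differed before any treatment. In U, 23 of the 41 imprinted genes tested over all lines (56.1%) differed between lines (limma F-test, adjusted p under 0.01 and range of line means over 1 in log2), beside 39% of the 16480 genes tested. Each line is 1 clone, and LCL and CLC also stand apart in the markers and in the library names given above. Line, clone and library batch thus cannot be told apart. Grb10 (range 4.57, adjusted p = 3.77e-19) had normalized read counts of 6804 and 7646 in the CTCF line, 1615 and 1495 in LCL, 405, 418 and 456 in CTCFL and 283 and 324 in CLC, 4 groups that did not overlap. Peg3 (range 9.19, adjusted p = 2.46e-19) was at 1105 and 1247 in the CTCF line and 55.2, 87.95 and 67.3 in CTCFL, but at 53.6 and 40.8 in LCL and 0.84 and 1.19 in CLC. Its untreated level in the CTCF line thus lay above every library of the other lines. Both other genes of the cluster were called as well: Usp29, a deubiquitinase gene, ran from 41.4 in CLC to 253 in the CTCFL line, and Zim1 was at 0 in both untreated CLC libraries.

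The maternal non-coding RNAs of the Dlk1-Meg3 cluster were lower in LCL and CLC. Meg3 (range 4.00, adjusted p = 2.86e-19) was at 2517, 2559 and 2847 in CTCFL and 1603 and 1920.1 in the CTCF line, against 243 and 250.1 in LCL and 166 and 161 in CLC. Rian, the snoRNA host of the cluster (range 2.01, adjusted p = 5.45e-17), was at 3455, 3618 and 3563, 2827 and 3724, 818 and 945 and 1139 and 1210.1 in the same order of lines. LCL was the lowest for Rian and CLC for Meg3, without overlap. Mirg, a microRNA host, and Dlk1, the paternally expressed Notch-like ligand of the cluster, were also called (range 2.90, adjusted p = 1.38e-10, and range 3.14, adjusted p = 1.33e-09).

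Genes of the Kcnq1 cluster showed the same division. Cdkn1c, the maternally expressed cyclin-dependent kinase inhibitor p57 (range 2.48, adjusted p = 5.03e-18), was at 1115, 1036 and 909 in CTCFL and 1149 and 959 in the CTCF line but 169.9 and 207 in LCL and 239.8 and 228 in CLC. Ascl2 (range 3.44, adjusted p = 3.06e-13), Phlda2, a growth-restraining gene of the placenta (range 1.31, adjusted p = 6.42e-08), and Kcnq1 (range 3.56, adjusted p = 8.35e-05) were called as well, and Slc22a18, Tssc4, Cd81 and Kcnq1ot1 were not. Nnat, neuronatin (range 4.89, adjusted p = 7.60e-11), was at 163, 178 and 138 in CTCFL and 7.6 and 2.37 in CLC. In the other direction, Trappc9 was higher in LCL and CLC (1567 and 1792, and 1669.8 and 1648) than in CTCFL and the CTCF line (887, 769 and 831, and 954 and 1017, range 1.02, adjusted p = 8.90e-09). The remaining calls were Impact, Mest, Mkrn3, Nap1l5, Peg10, Plagl1, Ppp1r9a, Sgce and Zrsr1, with ranges of log2 line means from 1.02 (Trappc9) to 9.19 (Peg3) over the 23.

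**Figure D2:**
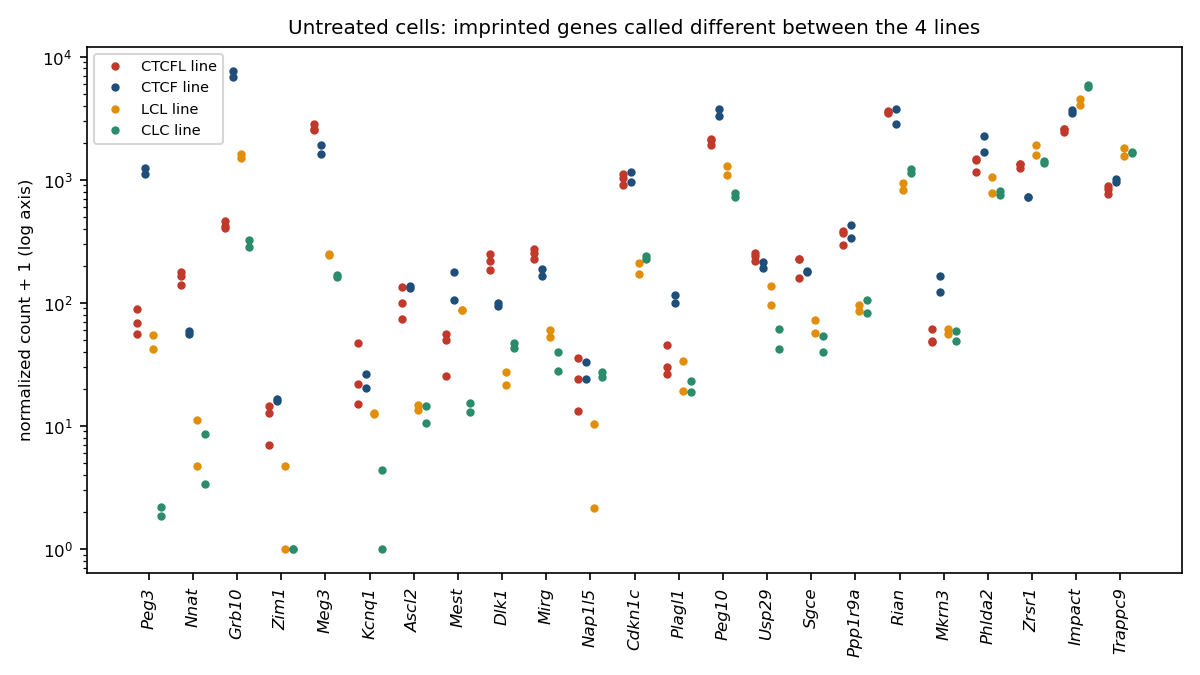
Normalized read counts plus 1 (log scale) of imprinted genes that differed between lines in U, each point an untreated library, colored by line. Peg3 spans from 0.84 in CLC to 1247 in the CTCF line, and Meg3, Cdkn1c and Ascl2 lie lower in both LCL and CLC than in both other lines.

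Depletion of CTCF alone was then compared with no treatment (I against U) to ask which imprinted genes change with it. Every line carried the degron and a transgene, so effects of either agent itself cannot be told apart from CTCF loss or transgene induction. Trappc9, Ppp1r9a and Sgce fell in all 4 lines, and were the only 3 of the 35 imprinted genes tested in all lines to be called lower in each, beside 2.66% of 14396 genes. Cdkn1c rose in 3 lines and Grb10 fell in 3. Called were 7 of 43 tested in the CTCFL line (16.3%, beside 9.58% of all genes tested), 8 of 41 in the CTCF line (19.5%, beside 10.9%), 5 of 37 in LCL (13.5%, beside 9.58%) and 7 of 38 in CLC (18.4%, beside 12.8%). The median log2 fold change of the imprinted genes was -0.0888, 0.0797, -0.0119 and 0.136 in these lines, beside 0.0418, 0.031, 0.0135 and 0.0047 over all genes. Both sets of medians lay near 0, and most of the imprinted genes were not called.

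Trappc9 fell in every line. Its normalized read counts were 887, 769 and 831 in U and 163, 177 and 122 in I of the CTCFL line (log2 fold change -2.44 ± 0.15, adjusted p = 2.30e-11). In the CTCF line they were 954 and 1017 in U and 213, 215 and 211 in I (log2 fold change -2.20 ± 0.12, adjusted p = 2.32e-08). LCL gave 1567 and 1792 in U and 298 and 287 in I (log2 fold change -2.52 ± 0.12, adjusted p = 6.32e-12), and CLC 1669.8 and 1648 in U and 204 and 185 in I (log2 fold change -3.09 ± 0.10, adjusted p = 3.58e-06). In every line each I library lay far below each U library, and no alternative setting ended a call. Trappc9 contains the paternally expressed Peg13 on the same strand, whose counts stayed at or under 11.73. As described above, no FLAG protein had a promoter site at Trappc9.

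Ppp1r9a and Sgce lie beside Peg10 and fell with depletion in each line. For Ppp1r9a the counts were 291, 369.6 and 382 in U and 31.7, 16.97 and 28.96 in I of CTCFL (log2 fold change -3.73 ± 0.24, adjusted p = 8.14e-11) and 335 and 429 in U and 73.6, 67.02 and 51.1 in I of the CTCF line (log2 fold change -2.57 ± 0.19, adjusted p = 2.77e-07). They were 94.6 and 84.6 in U and 16.3 and 21.03 in I of LCL (log2 fold change -2.21 ± 0.33, adjusted p = 1.90e-05), and 104 and 81.9 in U and 15.2 and 21.3 in I of CLC (log2 fold change -2.29 ± 0.35, adjusted p = 0.00113). The fall differed between lines (range 1.52, adjusted p = 0.00287), being larger in CTCFL. The CLC call was lost without U R1 (log2 fold change -2.13). Sgce went from 225, 224 and 157 to 96.98, 88.8 and 59.7 in CTCFL (log2 fold change -1.30 ± 0.21, adjusted p = 2.99e-05) and from 177 and 179 to 72.6, 61.3 and 64.5 in the CTCF line (log2 fold change -1.42 ± 0.19, adjusted p = 4.67e-05). In LCL it went from 71.8 and 55.6 to 12.8 and 14.6 (log2 fold change -2.13 ± 0.31, adjusted p = 1.77e-05) and in CLC from 38.8 and 52.2 to 13.4 and 9.75 (log2 fold change -1.89 ± 0.34, adjusted p = 0.00265). No I library of either gene overlapped a U library of its line. The Sgce call in CLC was lost without U R1, U R2 or I R2 (log2 fold change from -2.10 to -1.67).

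Peg10, which shares the bound promoter region with Sgce, did not follow it. It fell in LCL, from 1292 and 1096 to 489 and 393 (log2 fold change -1.44 ± 0.13, adjusted p = 2.20e-08), a call kept under every alternative. In the CTCF line its counts were 3278 and 3763 in U and 6901, 5445 and 5541 in I, a log2 fold change of 0.75 ± 0.11, under the fold threshold, and in CTCFL and CLC it was 0.24 ± 0.10 and -0.28 ± 0.27. The difference between lines was itself past the threshold (range 2.19, adjusted p = 1.11e-06). The log2 fold changes of Sgce and Peg10, which share a bound region, thus had opposite signs in the CTCFL and CTCF lines. Asb4, a maternally expressed gene of the cluster, was tested in CTCFL and CLC and called in neither.

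In the Kcnq1 cluster, Cdkn1c rose in the CTCF line (1149 and 959 in U and 2436, 3164 and 3298 in I, log2 fold change 1.49 ± 0.12, adjusted p = 5.27e-07), in LCL (169.9 and 207 in U and 552 and 561 in I, log2 fold change 1.56 ± 0.15, adjusted p = 5.74e-08) and in CLC (239.8 and 228 in U and 696 and 832 in I, log2 fold change 1.70 ± 0.15, adjusted p = 6.90e-05). In CTCFL the counts were 1115, 1036 and 909 in U and 1593, 1885 and 2094 in I, without overlap, and the log2 fold change of 0.86 ± 0.10 with adjusted p = 2.97e-07 stayed under the fold threshold. No alternative ended the 3 calls. The other 7 genes of the cluster were called in no line in this comparison, Slc22a18, a transporter gene, having log2 fold changes from 0.46 to 0.83 and Phlda2 from 0.04 to 0.61. Kcnq1ot1, the paternal non-coding RNA that silences the cluster on that chromosome, had values from -0.36 to 0.43.

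Grb10 fell in CTCFL (405, 418 and 456 in U and 206, 312 and 148 in I, log2 fold change -1.002 ± 0.20, adjusted p = 2.87e-04), the CTCF line (6804 and 7646 in U and 2965, 2748 and 2635 in I, log2 fold change -1.38 ± 0.08, adjusted p = 2.11e-08) and CLC (283 and 324 in U and 84.1 and 129 in I, log2 fold change -1.53 ± 0.22, adjusted p = 7.13e-04). In LCL it was 1615 and 1495 in U and 1140.3 and 1188 in I, a log2 fold change of -0.42 ± 0.13 with adjusted p = 0.018, and the lines differed (range 1.11, adjusted p = 0.00985). The CTCFL call was lost without U R3, I R1 or I R3 (log2 fold change from -0.98 to -0.75) and with a pseudocount of 5 (-0.99), and the CLC call without U R2 (log2 fold change -1.43). Among the Peg3 genes, Peg3 rose in the CTCF line (1105 and 1247 in U and 2870.1, 2155 and 2338 in I, log2 fold change 1.05 ± 0.11, adjusted p = 7.57e-06), a call lost without U R1 or I R1 (log2 fold change from 0.93 to 0.97). Zim1 rose there too (14.9 and 15.5 in U and 43.6, 43.2 and 36.9 in I, log2 fold change 1.38 ± 0.35, adjusted p = 0.00629), and that call was lost without U R1, U R2, I R1, I R2 or I R3 (log2 fold change from 1.34 to 1.46) and with no filter on low values (1.38). Groups of neither gene overlapped in that line.

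The Dlk1-Meg3 cluster responded by line. Rian fell in CTCFL, from 3455, 3618 and 3563 to 1506, 1409 and 1475 (log2 fold change -1.28 ± 0.07, adjusted p = 3.32e-12), and Mirg from 250.5, 272 and 226 to 47.6, 87.8 and 58.8 (log2 fold change -1.97 ± 0.28, adjusted p = 7.51e-06), both kept under every alternative. Meg3 in the same libraries was 2517, 2559 and 2847 in U and 1637, 1693 and 1808 in I, a log2 fold change of -0.62 ± 0.12 with adjusted p = 2.61e-04, below the fold threshold but without overlap. Mirg differed between lines (range 2.20, adjusted p = 7.79e-04), with a log2 fold change of 0.23 ± 0.30 in CLC. Dlk1 rose in CLC (42.2 and 46.3 in U and 89.4 and 145 in I, log2 fold change 1.35 ± 0.28, adjusted p = 0.00497) and had negative values in the other lines (range 1.85, adjusted p = 0.00852 for the difference). This CLC call was lost without U R1, U R2, I R2, D R1 or D R2 (log2 fold change from 1.00 to 1.41) and with no filter on low values (1.35).

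Nap1l5, a paternally expressed gene inside an intron of Herc3, rose in CTCFL (12.1, 34.6 and 23.2 in U and 51.3, 53.9 and 63.4 in I, log2 fold change 1.34 ± 0.39, adjusted p = 0.00833) and the CTCF line (31.9 and 23.2 in U and 44.5, 70.4 and 60.4 in I, log2 fold change 1.05 ± 0.25, adjusted p = 0.00401). The first call was lost without U R1, U R3, I R1, I R2, I R3, ID R1 or ID R2 (log2 fold change from 0.96 to 1.40), and with no filter on low values (1.34), by edgeR (1.25) and by DESeq2 (1.25). The second was lost without U R2, I R2 or I R3 (log2 fold change from 0.83 to 1.02), and with a pseudocount of 5 (0.95) and with no filter on low values (1.05). Its host Herc3, a ubiquitin ligase gene on the opposite strand, had log2 fold changes from -0.94 to -0.62 and no call. Nnat, which lies in an intron of Blcap, rose in CLC from 7.6 and 2.37 to 22.4 and 45.2 (log2 fold change 2.61 ± 0.60, adjusted p = 0.00833), a call lost without U R1, U R2, I R2, D R1, D R2, ID R1 or ID R2 (log2 fold change from 1.93 to 3.28) and with no filter on low values (2.61). The libraries kept strand (a dUTP method), but the strand setting of the counting was not given in the sources used here, so reads of these overlapping pairs, like those of Kcnq1 and Kcnq1ot1, Igf2r and Airn, Mest and Copg2 or Zrsr1 and Commd1, cannot be told apart.

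No call was made in I against U in the Snrpn-Ube3a, Igf2r-Airn, Mest-Copg2, Zrsr1-Commd1 and Mcts2-H13 clusters or at Gnas, Plagl1, Impact, Slc38a4, Rasgrf1 and Zdbf2. Over the 35 genes tested in all lines, 10 had a negative and 8 a positive log2 fold change in every line, 51.4%, beside 53.7% of all genes. Besides Trappc9, Ppp1r9a, Sgce and Grb10, the negative ones were Igf2r, Rian, Peg12, Copg2, Commd1 and Herc3. Besides Cdkn1c, the positive ones were Phlda2, Slc22a18, Ascl2, Usp29, Ndn, Blcap and Zrsr1. The response differed between lines for 6 of 41 genes (14.6%, beside 6.58%), namely Dlk1, Grb10, Mirg, Nnat, Peg10 and Ppp1r9a. This count was 2 without CTCFL U R2 and 3 without each of CTCFL U R1, CTCFL U R3, CTCFL I R1, CTCFL I R2, CTCF U R1, CTCF U R2, CTCF D R1, CTCF D R3, CTCF ID R1, CTCF ID R2, CTCF ID R3 and CLC U R2. In CLC, the 7 calls became 3 without U R1, 3 without U R2 and 4 without I R2.

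**Figure D3:**
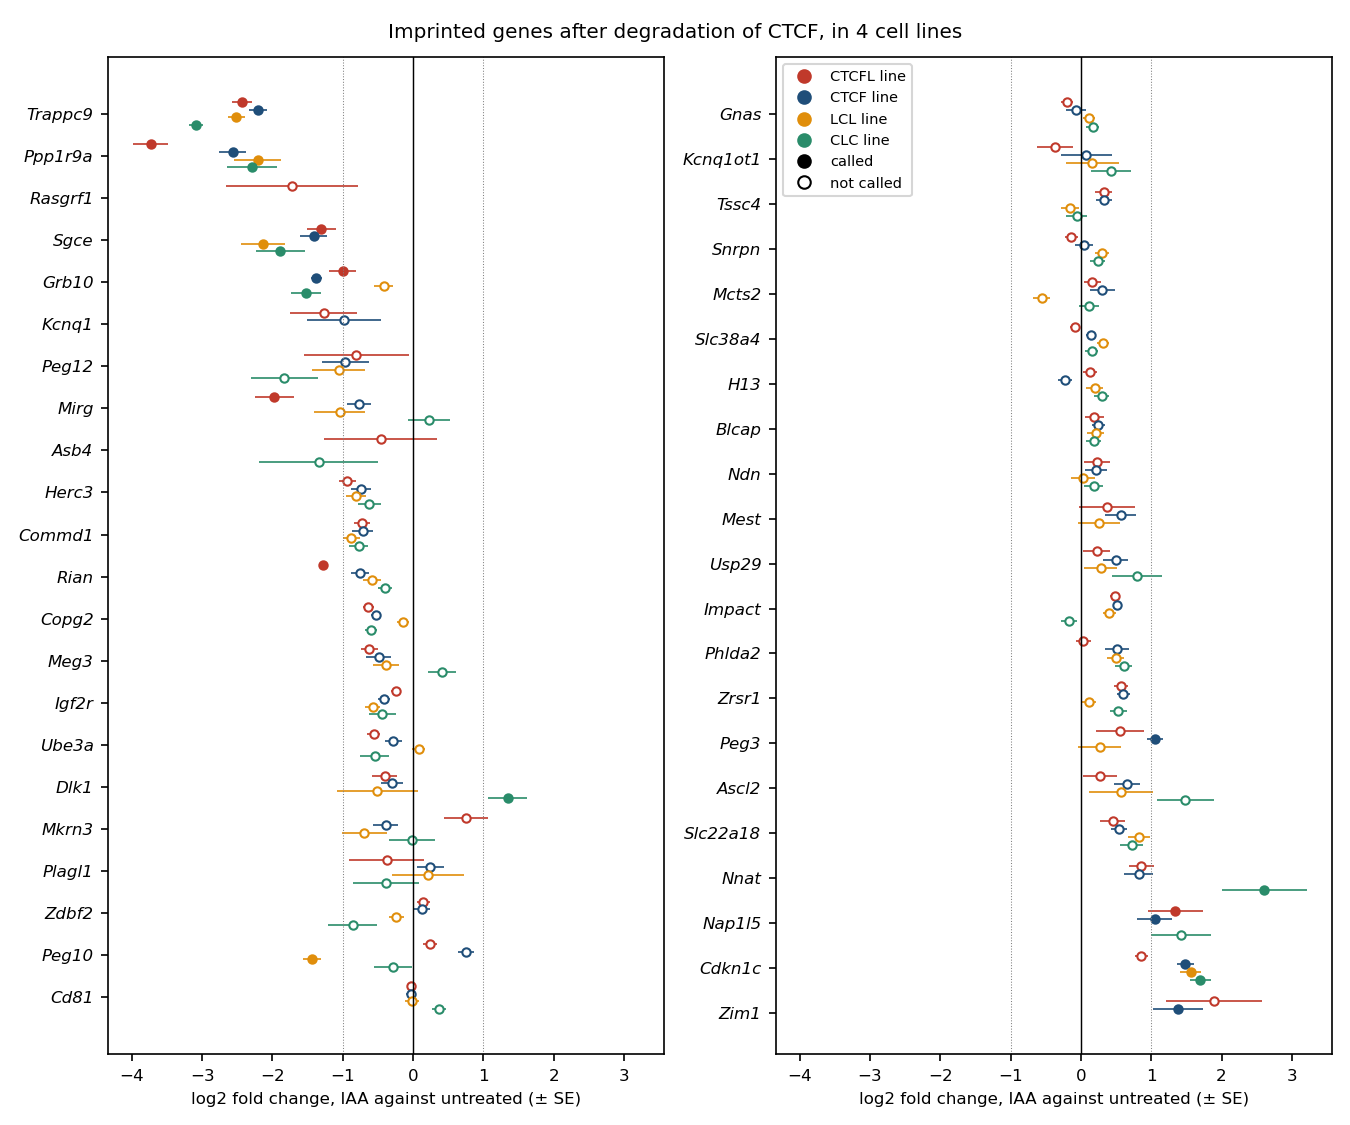
Log2 fold change of I against U (horizontal axis) for the imprinted genes in each line, bars giving the standard error and filled symbols the calls. Trappc9 lies between -3.09 and -2.20 and Ppp1r9a between -3.73 and -2.21 in the 4 lines, with Cdkn1c between 0.86 and 1.70 on the other side.

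Calls in I against U were set beside the sites of CTCF in ID. In the CTCFL line 3 of 15 tested genes with a promoter site were called and 4 of 28 without, beside 12.2% of all tested genes with a site and 8.59% of those without. The numbers were 5 of 14 and 3 of 27 in the CTCF line (13% and 10% of all genes), 3 of 13 and 2 of 24 in LCL (12.5% and 8.35%), and 3 of 12 and 4 of 26 in CLC (16.5% and 11.3%). With these few genes the member counts were not compared by a test. Sgce and Ppp1r9a were among those with a site in each line, and Trappc9 among those without.

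Expression of a transgene beside endogenous CTCF (D against U) gave few calls. In the CTCFL line 2 of 43 were called (4.65%, beside 5.9% of all genes). Kcnq1, a potassium channel gene, rose from 45.8, 20.8 and 13.9 in U to 169.7, 167 and 116 in D (log2 fold change 2.595 ± 0.48, adjusted p = 2.20e-04). Its difference between lines was not called (range 3.16, adjusted p = 0.0296). Phlda2 fell from 1442, 1465 and 1148 to 675, 602 and 637 (log2 fold change -1.08 ± 0.10, adjusted p = 7.81e-08). The D libraries of both genes lay clear of the U libraries, and both calls were kept under every alternative. Phlda2 had positive values, without a call, in the other lines: the log2 fold change was 0.59 ± 0.18 for CTCF, 0.55 ± 0.12 for LCL and 0.42 ± 0.12 for CLC (range 1.66, adjusted p = 1.55e-07 for the difference).

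With the CTCF transgene 0 of 41 were called by limma (beside 0.455% of all genes), with 17 at an unadjusted p under 0.05. LCL gave 0 of 37 (beside 1.91%), with 22, and CLC 0 of 38 (beside 0.6%), with 13. The share of all genes at the unadjusted cutoff was not counted, so 17, 22 and 13 do not set imprinted genes apart. On recovered reads edgeR also gave 0 in the 3 lines, and DESeq2 gave 0 in the CTCF line and LCL and 1 in CLC. Leaving out U R2 or D R2 of LCL gave 1 call, as did leaving out I R1 or I R2 of CLC. The response differed between lines for 4 of 41 genes (9.76%, beside 8.71%): Phlda2, Peg10 (range 1.47, adjusted p = 5.32e-05), Herc3 (range 1.05, adjusted p = 2.70e-04) and Ndn (range 1.09, adjusted p = 0.00278). Kcnq1 counts in D were 33.7, 31.9 and 16.3 in the CTCF line, 18.6 and 25.7 in LCL and 18.4 and 23.8 in CLC, against 19.1 and 25.4, 11.4 and 11.7 and 3.38 and 0 in U. Except for D R3 of the CTCF line, each of these D libraries was above the U libraries of its line, and LCL and CLC did not pass the filter.

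The condition ID, with the transgene in place of endogenous CTCF, was set against I to ask what the transgene changed, and against U to ask what remained. Both use the same ID libraries, and the I or U libraries are also those of the comparisons above, so these comparisons are not independent of one another. Against I, 10 of 37 genes were called in LCL (27%, beside 8.49% of all genes), 4 of 43 in CTCFL (9.3%, beside 7.83%), 4 of 41 in the CTCF line (9.76%, beside 5.06%) and 1 of 38 in CLC (2.63%, beside 1.95%). The median log2 fold change in LCL was 0.257 over the imprinted genes and 0.00387 over all genes. In CTCFL, the CTCF line and CLC it was 0.0701, -0.111 and 0.0356, beside -0.0135, -0.0212 and 0.00983. The response differed between lines for 17 of 41 genes (41.5%, beside 25.3%).

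With LCL, 8 genes of 4 clusters rose (of 37, beside 4.04% of all genes that were called higher). Sgce went from 12.8 and 14.6 in I to 96.5 and 74.9 in ID (log2 fold change 2.55 ± 0.31, adjusted p = 1.96e-06) and Peg10 from 489 and 393 to 2001 and 2472 (log2 fold change 2.34 ± 0.13, adjusted p = 4.11e-11). For both, ID also lay above the U libraries (71.8 and 55.6 for Sgce, 1292 and 1096 for Peg10). Rian went from 674 and 508 to 1960.3 and 1991 (log2 fold change 1.75 ± 0.13, adjusted p = 1.77e-09) and Mirg from 18.6 and 37.2 to 114 and 129 (log2 fold change 2.15 ± 0.36, adjusted p = 6.60e-05). Meg3 in the same libraries was 165 and 214 in I and 298 and 347 in ID, without overlap, at a log2 fold change of 0.77 ± 0.18. LCL peaks were called in D and ID at the Sgce-Peg10 and Meg3 sites described above.

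In the Snrpn-Ube3a cluster, Peg12 rose with LCL, from 14.6 and 18.6 to 85.95 and 74.9 (log2 fold change 2.22 ± 0.38, adjusted p = 7.77e-05), and the ring finger gene Mkrn3, from 36.7 and 33.97 to 111 and 136 (log2 fold change 1.77 ± 0.31, adjusted p = 1.19e-04), both paternally expressed. Neither gene overlapped between I and ID. Cdkn1c rose further, from 552 and 561 to 1190.3 and 1064 (log2 fold change 1.02 ± 0.15, adjusted p = 1.32e-05), and Ascl2 from 20.97 and 18.6 to 52.4 and 69.2 (log2 fold change 1.56 ± 0.45, adjusted p = 0.00805). Grb10 fell, from 1140.3 and 1188 to 419.7 and 623 (log2 fold change -1.19 ± 0.13, adjusted p = 7.42e-07), as did Kcnq1ot1, from 99.6 and 116 to 52.98 and 21.2 (log2 fold change -1.65 ± 0.37, adjusted p = 0.00117). The Cdkn1c call was lost without ID R1 (log2 fold change 0.93), the Ascl2 call without I R1, I R2, D R1, D R2, ID R1 or ID R2 (log2 fold change from 1.36 to 1.76) and with no filter on low values (1.56), the Grb10 call without ID R1 (log2 fold change -0.90) and the Kcnq1ot1 call without I R2 or ID R2 (log2 fold change from -1.54 to -1.005) and with no filter on low values (-1.65).

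With CTCFL, Sgce rose from 96.98, 88.8 and 59.7 in I to 261 and 209 in ID (log2 fold change 1.53 ± 0.23, adjusted p = 1.85e-05), within or above the range of U (225, 224 and 157), and this was the call kept under every alternative. Kcnq1 rose from 17.7, 7.98 and 5.43 to 49.1 and 38.2 (log2 fold change 2.11 ± 0.54, adjusted p = 0.00312), and Ppp1r9a from 31.7, 16.97 and 28.96 to 46.95 and 56.3 (log2 fold change 1.01 ± 0.27, adjusted p = 0.00499), still far below U. Zrsr1, a splicing factor retrogene in an intron of Commd1, fell from 1751, 1908 and 2166 to 775 and 1040.3 (log2 fold change -1.11 ± 0.12, adjusted p = 1.34e-07). The Kcnq1 call was lost without I R3, ID R1 or ID R2 (log2 fold change from 1.77 to 2.29), and with no filter on low values (2.11), by edgeR (2.07) and by DESeq2 (2.07), the Ppp1r9a call without I R2, ID R1 or ID R2 (log2 fold change from 0.74 to 1.14), and with a pseudocount of 5 (0.90), with no filter on low values (1.01), with TMM factors (0.96), by edgeR (0.62) and by DESeq2 (0.61), and the Zrsr1 call without ID R1 (log2 fold change -0.89). Without ID R1 only the Sgce call remained.

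The CTCF transgene gave a different set. Peg10 fell from 6901, 5445 and 5541 in I to 2039, 2086 and 2184 in ID (log2 fold change -1.50 ± 0.10, adjusted p = 2.57e-07) and Ppp1r9a from 73.6, 67.02 and 51.1 to 25.3, 24.6 and 21.2 (log2 fold change -1.38 ± 0.17, adjusted p = 4.14e-05), further from its untreated level. Nap1l5 rose from 44.5, 70.4 and 60.4 to 113, 128 and 139 (log2 fold change 1.12 ± 0.22, adjusted p = 0.00149) and Dlk1 from 76.5, 87.5 and 70.4 to 157, 157 and 174 (log2 fold change 1.05 ± 0.14, adjusted p = 8.05e-05). In each of the 4 the groups did not overlap. The Nap1l5 call was lost without I R1 (log2 fold change 0.94) and the Dlk1 call without I R3 (log2 fold change 0.98). In CLC the single call was Dlk1, which fell from 89.4 and 145 to 40.6 and 30.99 (log2 fold change -1.66 ± 0.28, adjusted p = 0.00659), lost without U R1, U R2, I R2, D R1, D R2, ID R1 or ID R2 (log2 fold change from -1.85 to -1.31) and with no filter on low values (-1.66). Without CLC I R1 there were 2 calls. Dlk1 thus moved oppositely in the CTCF line and CLC (range 2.71, adjusted p = 8.28e-05 for the difference between lines).

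Herc3, Meg3, Peg3, Phlda2 and Trappc9 also differed between lines in ID against I, without a call in any line. Peg10 had the difference with the smallest adjusted p (range 3.83, adjusted p = 8.31e-13), with a fall in the CTCF line and a rise in LCL. The log2 fold changes of Rian (range 2.21, adjusted p = 1.61e-11), Cdkn1c (range 1.64, adjusted p = 2.52e-08) and Mirg (range 3.15, adjusted p = 6.51e-07) were higher with LCL than with CTCF. Trappc9 (range 1.10, adjusted p = 4.72e-05) had log2 fold changes of -0.26 ± 0.16, -0.38 ± 0.11, -0.23 ± 0.12 and 0.72 ± 0.10 in CTCFL, CTCF, LCL and CLC, and was called in none.

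**Figure D4:**
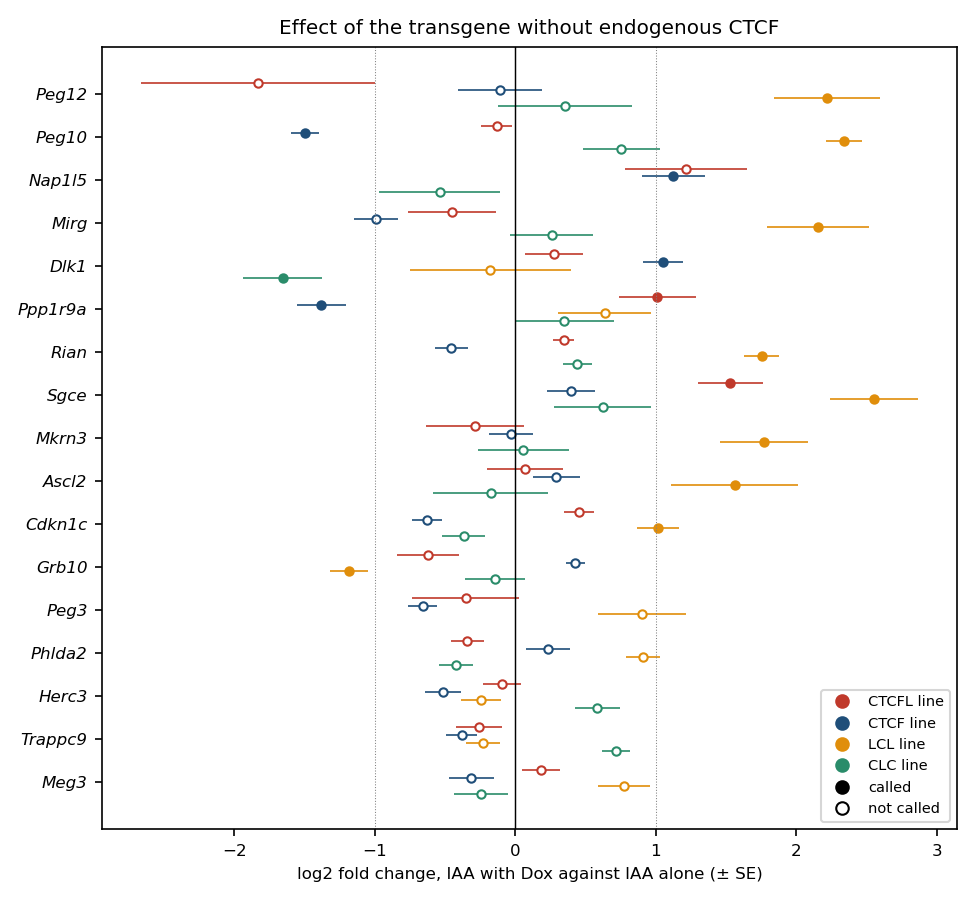
Log2 fold change of ID against I (horizontal axis) for imprinted genes in each line, with standard errors and filled symbols for calls. LCL points reach 2.55 for Sgce and 2.34 for Peg10, while the CTCF line reaches -1.50 for Peg10.

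Against U, the ID libraries held 9 calls of 43 in CTCFL (20.9%, beside 19.6% of all genes), 9 of 41 in the CTCF line (22%, beside 14.9%), 12 of 37 in LCL (32.4%, beside 12.5%) and 4 of 38 in CLC (10.5%, beside 6.47%). Trappc9 and Ppp1r9a were lower than in U with each of the 4 transgenes. Trappc9 counts in ID were 112 and 144 in CTCFL (log2 fold change -2.69 ± 0.16, adjusted p = 8.57e-12) and 149.5, 182 and 160.4 in the CTCF line (log2 fold change -2.58 ± 0.12, adjusted p = 2.10e-09). They were 238 and 261 in LCL (log2 fold change -2.74 ± 0.12, adjusted p = 1.45e-12) and 315 and 324 in CLC (log2 fold change -2.37 ± 0.10, adjusted p = 3.59e-05). No transgene, that of CTCF included, brought Trappc9 near its untreated counts. Ppp1r9a had log2 fold changes of -2.72 ± 0.27, -3.95 ± 0.19, -1.58 ± 0.33 and -1.95 ± 0.35 in the same order, with counts in ID of 27.7 and 31.1 in LCL and 17.3 and 30.99 in CLC. The CLC call was lost without U R1, U R2 or ID R1 (log2 fold change from -2.12 to -1.54) and with no filter on low values (-1.95).

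Sgce divided the transgenes. Against U it was lower in ID in the CTCF line, at 68.7, 95.03 and 101 (log2 fold change -1.02 ± 0.19, adjusted p = 4.82e-04), a call lost without ID R1 (log2 fold change -0.85) and with a pseudocount of 5 (-0.99). CLC counts in ID were 15.1 and 21.9, below both U libraries, at a log2 fold change of -1.26 ± 0.34 with adjusted p = 0.0231. In CTCFL and LCL the values against U were 0.23 ± 0.23 and 0.42 ± 0.31, with no call. The difference between lines in ID against I was past the threshold (range 2.16, adjusted p = 1.29e-05).

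Grb10 was lower in ID than in U in CTCFL (147 and 129, log2 fold change -1.62 ± 0.22, adjusted p = 1.84e-06), LCL (419.7 and 623, log2 fold change -1.60 ± 0.13, adjusted p = 8.51e-09) and CLC (102 and 87.5, log2 fold change -1.67 ± 0.22, adjusted p = 9.10e-04). In the CTCF line it was at 3678, 3808 and 3733, with -0.95 ± 0.08 with adjusted p = 2.77e-07, short of the fold threshold. The CLC call was lost without U R2 (log2 fold change -1.57). Herc3 fell in CTCFL (296 and 371 against 587, 695 and 768 in U, log2 fold change -1.03 ± 0.13, adjusted p = 1.03e-06), the CTCF line (304, 256 and 244 against 644 and 637, log2 fold change -1.26 ± 0.14, adjusted p = 7.09e-06) and LCL (254 and 277 against 587 and 520.5, log2 fold change -1.06 ± 0.14, adjusted p = 4.04e-06). Its groups did not overlap in these lines. The CTCFL call was lost without U R3 or ID R1 (log2 fold change from -0.94 to -0.87) and the LCL call without U R1 or ID R1 (log2 fold change from -0.995 to -0.97). Nap1l5, within Herc3, was higher in CTCFL (146 and 118, log2 fold change 2.56 ± 0.44, adjusted p = 3.61e-05) and the CTCF line (113, 128 and 139, log2 fold change 2.17 ± 0.25, adjusted p = 8.42e-06), above every U library.

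Cdkn1c was higher in ID than in U in CTCFL (2384 and 2675, log2 fold change 1.31 ± 0.11, adjusted p = 1.11e-09), LCL (1190.3 and 1064, log2 fold change 2.58 ± 0.15, adjusted p = 5.30e-11) and CLC (664 and 523, log2 fold change 1.33 ± 0.15, adjusted p = 5.16e-04). In the CTCF line it was at 1820.5, 1980.4 and 1914 (log2 fold change 0.86 ± 0.12 with adjusted p = 4.67e-05), above U without reaching the fold threshold. Within the Kcnq1 cluster, Phlda2 also rose in LCL in ID (2495 and 2289 against 779 and 1048 in U, log2 fold change 1.40 ± 0.12, adjusted p = 1.07e-08) and Ascl2 (52.4 and 69.2 against 13.7 and 12.3, log2 fold change 2.13 ± 0.45, adjusted p = 5.70e-04), and Kcnq1ot1 fell (52.98 and 21.2 against 133 and 68.5, log2 fold change -1.48 ± 0.37, adjusted p = 0.00239). In CTCFL Slc22a18 rose (346 and 466 against 187, 235 and 172, log2 fold change 1.03 ± 0.20, adjusted p = 1.46e-04). The Ascl2 call was lost without ID R2 (log2 fold change 1.93), the Kcnq1ot1 call without U R1 or ID R2 (log2 fold change from -1.01 to -0.84) and with no filter on low values (-1.48) and the Slc22a18 call without U R1, U R3 or ID R2 (log2 fold change from 0.82 to 1.00), and with TMM factors (0.96), by edgeR (0.77) and by DESeq2 (0.76).

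Rian was called against U in opposite directions with CTCF and LCL. It was at 1576, 1345 and 1305 in ID of the CTCF line, below U (log2 fold change -1.21 ± 0.13, adjusted p = 4.99e-06), and at 1960.3 and 1991 in LCL, above U (log2 fold change 1.17 ± 0.13, adjusted p = 2.32e-07). Mirg was below U in the CTCF line (59.1, 43.4 and 51.5, log2 fold change -1.76 ± 0.17, adjusted p = 1.94e-06) and in CTCFL (58.97 and 35.2, log2 fold change -2.42 ± 0.32, adjusted p = 1.07e-06), whereas LCL (114 and 129) lay above its U libraries at 1.11 ± 0.36 with adjusted p = 0.0145. Meg3 was not called against U in any line. In every group with counts given here, the ID libraries did not overlap those of U.

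The remaining calls against U were single. In CTCFL Ube3a, a ubiquitin ligase gene, fell to 1664 and 1800.2 from 3632, 3388 and 4137 (log2 fold change -1.10 ± 0.10, adjusted p = 1.02e-08). In LCL Igf2r, the mannose-6-phosphate receptor gene, fell to 2269 and 2881 from 5482 and 4873 (log2 fold change -1.02 ± 0.10, adjusted p = 1.12e-07), Peg3 rose to 123 and 91.8 (log2 fold change 1.17 ± 0.31, adjusted p = 0.00371) and Mkrn3 to 111 and 136 (log2 fold change 1.08 ± 0.31, adjusted p = 0.00718). In the CTCF line Mest, a hydrolase gene, rose to 247, 294 and 291 from 178 and 105 (log2 fold change 1.01 ± 0.22, adjusted p = 0.00187) and Nnat to 130.2, 113 and 114 from 58.5 and 55.2 (log2 fold change 1.05 ± 0.21, adjusted p = 7.99e-04). No alternative ended the Ube3a call. The calls of Igf2r were lost without U R1 or ID R1 (log2 fold change from -0.93 to -0.84), of Peg3 without U R2 or ID R1 (log2 fold change from 0.96 to 0.97) and with no filter on low values (1.17) and of Mkrn3 without U R1, U R2, D R2, ID R1 or ID R2 (log2 fold change from 0.94 to 1.22) and with no filter on low values (1.08). Those in the CTCF line were lost for Mest without U R2, ID R2 or ID R3 (log2 fold change from 0.64 to 0.98), and with a pseudocount of 5 (0.99), with TMM factors (0.96), by edgeR (0.94) and by DESeq2 (0.94) and for Nnat without ID R1 (log2 fold change 0.98), and with a pseudocount of 5 (1.00) and with TMM factors (1.00). The 4 calls in CLC became 2 without U R2.

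**Figure D5:**
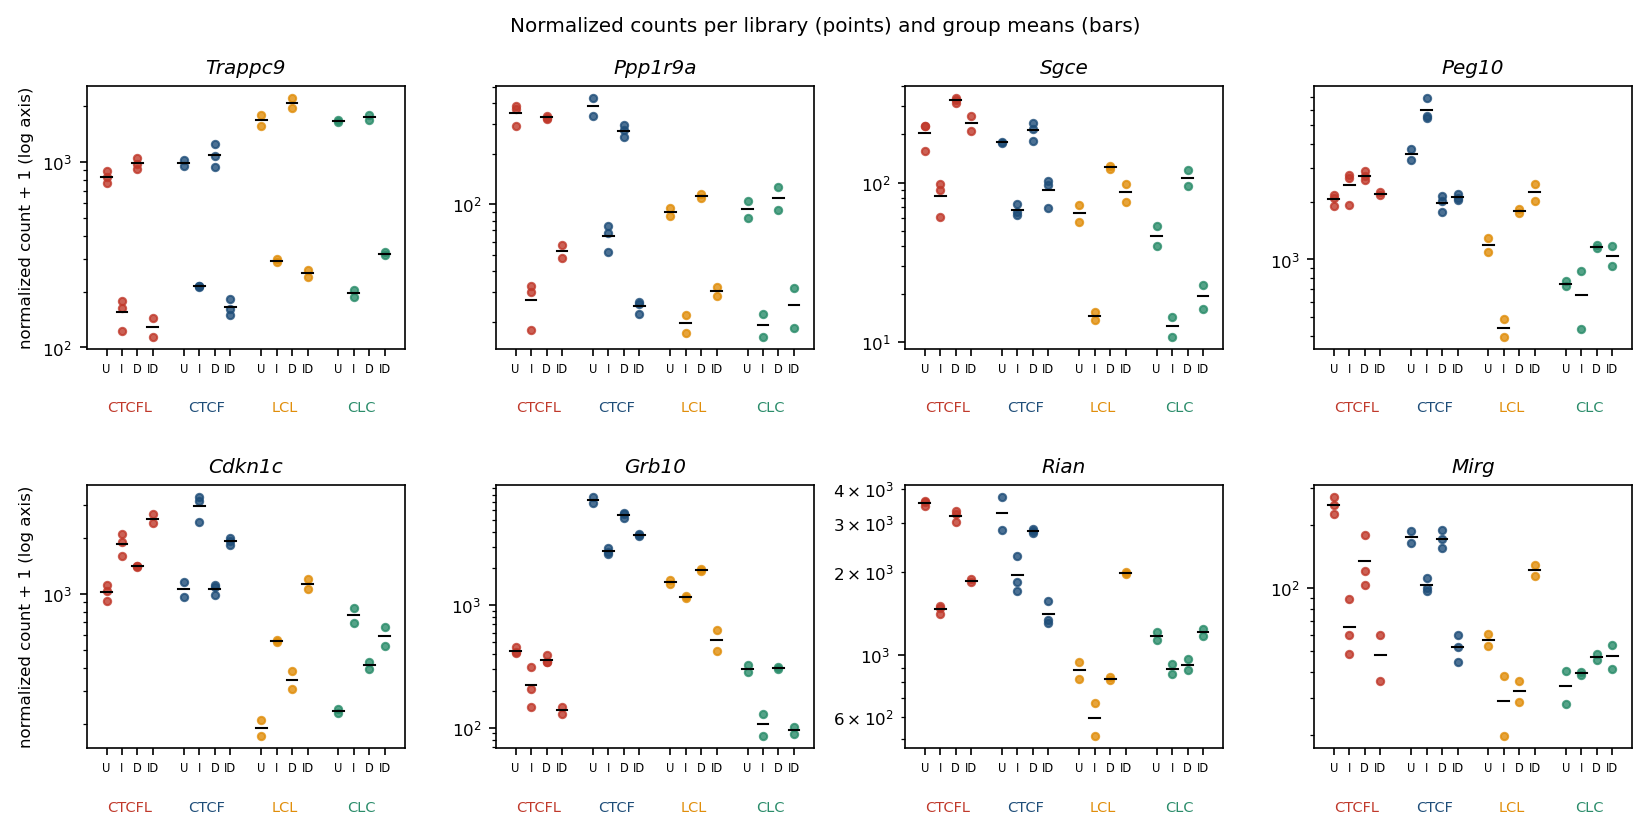
Normalized read counts plus 1 (log scale) of leading imprinted genes in every library by line and condition (U, I, D, ID), each point a library and each bar a group mean. Trappc9 is at most 324.5 in every I and ID library and at least 769 in every U and D library, and Sgce is at 74.9 and 96.5 in ID of LCL.

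Genes called in no comparison of conditions were 22, 4 of them untested. Of these, Meg3, Impact, Usp29 and Plagl1 differed between untreated lines, with counts over all libraries of 128 to 2847 for Meg3, 25.3 to 379 for Usp29 and 1502 to 7642 for Impact. Snrpn, which encodes a splicing protein, stayed between 1139.8 and 2248, the tetraspanin gene Cd81 between 5172 and 11005 and Gnas, a G protein subunit gene, between 6685 and 16033. In Plagl1, a zinc finger gene, counts were 115 and 99.4 in U of the CTCF line and 25.6, 44.5 and 29.03 in U of CTCFL, without overlap.

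Genes that maintain or set imprints were counted from a list of 18 that held DNA methyltransferases, TET enzymes, Zfp57 with its partners, Polycomb subunits, and Ctcf and Ctcfl. Dppa3, which protects methylation in the zygote, rose in I against U in CTCFL (1597, 1621 and 1474 in U and 2967, 3157 and 4101 in I, log2 fold change 1.11 ± 0.11, adjusted p = 2.84e-08), the CTCF line (3049.98 and 2411 in U and 5462, 7175 and 6801 in I, log2 fold change 1.25 ± 0.12, adjusted p = 1.78e-06) and CLC (1589 and 1651 in U and 4184 and 5320.1 in I, log2 fold change 1.54 ± 0.12, adjusted p = 3.33e-05). In LCL it was 5832 and 5345 in U and 10808 and 11220.5 in I, under the fold threshold. Apart from Ctcfl, the other calls in this comparison were falls of Tet1 in the CTCF line (-1.06 ± 0.12) and Smchd1 in CLC (-1.0002 ± 0.18). In ID against U, Tet1 and Tet2 fell in CTCFL, the CTCF line and LCL (log2 fold changes from -1.81 to -1.35), and Smchd1 fell in CTCFL and the CTCF line. Dppa3 rose in LCL and CLC (1.40 ± 0.09 and 1.17 ± 0.12), and Dnmt3a and Dnmt3l fell in LCL (-1.32 ± 0.11 and -1.62 ± 0.10). In D against U, Dppa3 and Trim28 fell in CTCFL (-1.32 ± 0.11 and -1.01 ± 0.06) and Tet2 in the CTCF line (-1.12 ± 0.15). In ID against I, Dppa3 fell in CTCFL (-1.31 ± 0.12) and Tet2 in CTCFL (-1.07 ± 0.13) and the CTCF line (-1.06 ± 0.14). Their part in the changes of imprinted genes was not tested.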

How the data were processed

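Gene expression was measured by RNA-seq in 38 libraries and binding by FLAG or RAD21 ChIP-seq. The authors aligned the RNA-seq reads with STAR and counted them per gene, and the deposited signal values are normalized read counts, whose steps show 1 size factor per library. The authors used DESeq2 for their own tests, with the same thresholds as here. The RNA libraries were made by a dUTP method that keeps strand. The strand setting and annotation used for counting and the control library for peaks were not given in the sources used here. For ChIP-seq the authors used Bowtie2 on the mouse build GRCm38 (mm10) and MACS, run separately on each replicate, at a q threshold of 0.05. Per the file headers the peak lists hold a −log10 q and a fold enrichment over background (a ratio). Only the −log10 q was used here. Depth of the peak libraries is unknown.

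In 36 of 38 libraries, 100% of the values up to 500 reads were whole multiples of 1 step (within 0.1 read), so reads were recovered from them. The recovered reads were used for edgeR (4.0.16) and DESeq2 (1.42.0) as alternatives, which left out I R2 and ID R2 of the CTCFL line. The main test was limma (3.58.1, R 4.3.3, trended variance) on log2(normalized count + 1), a scale that understates changes of low genes. One fit was made per line over its U, I, D and ID libraries and over all genes with a mean of at least 10. Differences between lines were tested by an F-test in 1 fit of all 38 libraries. A call required that the log2 fold change, or the range over lines, exceed 1 with a p adjusted by Benjamini-Hochberg under 0.01. Both models were tested on simulated data with known changes. Tables were handled in Python 3.11.15 with pandas 2.3.3 and numpy 2.4.6.

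Peaks found in both replicates of a group (sharing 1 bp or more) were joined into a site, and sites with their middle within 3 kb of an annotated start on the same build were counted as promoter sites. Sequences were read from the GRCm38 genome.

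The 47 imprinted genes, the markers and the list of imprint regulators were chosen with earlier results of these data known. Every imprinted gene is accounted for, and genes outside the lists are not named. Those called in a comparison of conditions are named, most with the counts of the libraries compared. For several genes called between untreated lines only the range or the name is given. Marker lists of mesoderm, neural, trophoblast and fibroblast cells were read only for calls within a line. Alternatives were a pseudocount of 5, no filter, TMM factors, a replicate block, both count tests, each library left out, and for sites a window of 1 kb, a −log10 q of at least 5, either replicate alone and any overlap with the window.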

Additional observations from a re-analysis of the deposited data

Results flagged for a closer look

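The values in this part are ranges, over the 4 lines, of a gene's log2 fold change in the same comparison. They were singled out because the comparison differed between lines in a limma F-test over all genes (adjusted p under 0.01 with a range over 1). In D against U the ranges were 1.66 for Phlda2, 1.09 for Ndn, 1.47 for Peg10 and 1.05 for Herc3. In I against U they were 1.85 for Dlk1, 2.20 for Mirg, 2.19 for Peg10, 1.52 for Ppp1r9a, 3.33 for Nnat and 1.11 for Grb10. In ID against I they were 1.64 for Cdkn1c, 1.33 for Phlda2, 1.74 for Ascl2, 1.56 for Peg3, 1.09 for Meg3, 2.71 for Dlk1, 2.21 for Rian, 3.15 for Mirg, 2.06 for Mkrn3, 4.05 for Peg12, 3.83 for Peg10, 2.16 for Sgce, 2.39 for Ppp1r9a, 1.61 for Grb10, 3.25 for Nap1l5, 1.10 for Herc3 and 1.10 for Trappc9. The widest, that of Peg12, rests on counts of 27.97, 16.97 and 20.8 in I and 1.09 and 18.1 in ID of the CTCFL line against 14.6 and 18.6 and 85.95 and 74.9 in LCL. Next came Peg10, with log2 fold changes of -1.50 ± 0.10 in the CTCF line and 2.34 ± 0.13 in LCL. The Nap1l5 and Nnat ranges include LCL, where mean counts were too low for the test within that line. Each line is 1 clone, so the transgene, the clone, the library batch and whatever the tag 2i marks cannot be told apart in these differences.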

How the results depend on the processing

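Of the 82 calls of single genes, 49 held under every alternative, and no direction was reversed in any. Leaving out each library gave 5 to 8 calls in I against U for the CTCFL line, 6 to 8 for the CTCF line, 5 to 6 for LCL and 3 to 8 for CLC. In D against U it gave 2 to 3, 0 to 0, 0 to 1 and 0 to 1 in the same order, in ID against I 1 to 5, 4 to 5, 7 to 10 and 0 to 2, and in ID against U 7 to 10, 8 to 11, 9 to 15 and 2 to 4. Genes that differed between lines were 22 to 24 in U, 2 to 8 in I against U, 3 to 5 in D against U and 14 to 22 in ID against I. With no filter on low values, which adds low genes to the adjustment, ID against I gave 2 calls in CTCFL and 0 in CLC, and 3 genes differed between lines in I against U. DESeq2 gave 1 call in D against U of CLC. The cause of these changes was not tested.

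Same-numbered libraries did not deviate together: the correlation of their deviations from group means ran from -0.297 to 0.162 and was over 0.1 in 0 of 15 pairs in CTCFL, 3 of 15 in the CTCF line, 0 of 12 in LCL and 0 of 12 in CLC, so the numbers give no pairing. With 2 libraries per condition in LCL and CLC, the deviations of R1 and R2 mirror each other. Each correlation in these lines is therefore listed for both numbers, and the 12 pairs are not all independent. With the replicate number as a block, the count in ID against I of CLC went from 1 to 0. The block also ended the calls in I against U of Nap1l5 in the CTCFL and CTCF lines and of Dlk1 and Nnat in CLC, and the other counts stayed within 1.5 times.

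Counts of imprinted promoters with a site moved most where lists were short or unequal. For CTCF in D a 1 kb window gave 11, and for CLC in D replicate 1 alone gave 5. RAD21 in D of the CTCF line gave 3 with 1 kb, 0 with a −log10 q of at least 5 and 8 from replicate 1 alone, and in ID 0 with the stricter q and 4 from replicate 1. From replicate 1 alone RAD21 gave 9 in D and 2 in ID of CTCFL, 1 in D and 1 in ID of CLC and 1 in ID of LCL, and from replicate 2 alone 13 in D of CLC and 9 in D of LCL. CTCF with RNase gave 4 with the stricter q and 16 from replicate 1. Replicate 2 alone gave 6 and 16 for CLL in D and ID and 6 and 10 for LLC. LLC gave 0 in D and 2 in ID with 1 kb, and 0 and 1 with the stricter q. The cause was not tested. With 2 or 3 libraries per group, leaving out 1 can leave a lone library, which is then assumed to vary like the other groups.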
